A study of Mus musculus with 12 samples.

Results

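The endoplasmic reticulum (ER) genes described here are 34 genes that fold, move and clear secretory proteins or sense their misfolding. They were chosen by gene symbol from a list of the pathway, with earlier results of these data known. The list holds 17 chaperones and folding enzymes, 8 genes of ER-associated degradation, 5 of translocation into the ER, and 4 for the sensors of the unfolded protein response and the transcription factor Xbp1. All 34 were found among the 55202 named genes of the count table, and 33 had enough counts to be tested.

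RNA was sequenced from 12 libraries labelled as tumor-associated macrophages (TAMs), 6 from DMBA3-4 tumors and 6 from DMSO3-1 tumors. DMBA3-4 is a clone of a PyMt mammary tumor line that had been exposed to the carcinogen 7,12-dimethylbenz[a]anthracene (DMBA), and DMSO3-1 is a clone of the same line given only the vehicle, DMSO. Both were injected into female Rag1-/- mice on the C57BL/6 background, which lack T and B cells but keep other immune cells. The sources used here do not give the age of the mice. The sorting gate was CD45+ CD11b+ F4/80+. Each tumor line is 1 clone, so the exposure and other differences between the clones cannot be told apart. No source used here ties a library to its own mouse, so p-values reflect the spread from library to library, and that spread may be technical.

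The ER folds nearly all proteins that a cell secretes or places on its surface. When unfolded proteins build up there, 3 membrane proteins respond: IRE1 (gene Ern1) splices the mRNA of Xbp1, PERK (Eif2ak3) slows translation, and ATF6 is cut to release a transcription factor. Spliced XBP1 and cut ATF6 switch on chaperone and degradation genes, in part through a promoter sequence called the ER stress response element. Macrophages release cytokines and enzymes through the same route.

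Total counts ran from 3040452 to 4632817 per library labelled DMBA3-4 TAM and from 2752005 to 3978901 per library labelled DMSO3-1 TAM. The genes that define the sorted cells were almost absent: Ptprc (CD45) had 0 to 7 counts per library, and Itgam (CD11b) and Adgre1 (F4/80) 0 to 3 each, so the libraries are called by their labels. The whole list of 20 macrophage markers held 0.00788% to 0.0121% of counts in the DMBA3-4 libraries and 0.00702% to 0.00944% in the DMSO3-1 libraries. A list of 15 fibroblast and mesenchyme genes, 13 of them tested with 2 higher and 5 lower, held 0.900% to 1.15% and 1.21% to 1.33%, without overlap. The largest part of this share was Vim, at 16110 to 30005 counts against 21456 to 29602. Col6a1 came next, at 3734 to 7975 against 5765 to 8500. Of the 15 genes 2, Col1a2 and Thy1, had at most 10 counts in every library. The list of 15 epithelial genes, 4 of them tested with 1 higher and 2 lower, held 0.152% to 0.215% and 0.102% to 0.176%, nearly all of it Krt8 and Krt18. Epcam was at 0 in every library, and Cdh1 had 0 to 3 counts against 12 to 24. The list of 10 dendritic cell genes, 2 of them tested and both lower, held 0.00233% to 0.00322% and 0.00465% to 0.00646%, again without overlap. However, 7 of the 10 had at most 10 counts in every library, with Itgax and Flt3 at 0 or 1 count. Most of the share was Irf8, at 40 to 75 counts against 94 to 159, and Zbtb46, at 32 to 48 against 21 to 97. The list of 11 plasma cell genes, 2 of them tested with 1 higher and 1 lower, held 0.00730% to 0.0120% and 0.0107% to 0.0180%. However, 9 of the 11 had at most 10 counts in every library and most of the share was Sdc1, which other cells also express. Sdc1 had 193 to 394 counts against 367 to 717, while Pou2af1 had 20 to 56 against 0 to 2. The part of these lists in the results was not tested. DMSO3-1 replicates 1 and 6 stood apart from the other 4 DMSO3-1 libraries on both leading principal components, and results are also given without them and with only them. DMBA3-4 replicate 5 also stood apart from its group on both. Without it the calls were as with all libraries, 14 ER genes higher and 7 lower, where 29.3% and 29.4% of 11700 genes were called.

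In the comparison of the groups, 14 of the 33 tested genes were higher in the DMBA3-4 libraries and 7 were lower, at an adjusted p under 0.05 in edgeR's quasi-likelihood test with Benjamini-Hochberg adjustment over all 11511 genes tested. Of all those genes, 29.9% were higher and 30.2% lower. For 12 ER genes every DMBA3-4 library lay above every DMSO3-1 library, and for 5 every one lay below, against 17.0% and 15.2% of all genes. The median log2 fold change was 0.02 for the 33 genes and 0.00 for all genes, with a range from -2.61 (Hyou1) to 1.23 (Selenos). The classes differed in their counts. Chaperones were mostly higher, degradation genes mostly did not pass the test, translocation genes were divided, and no sensor was higher. However, the degradation, translocation and sensor classes hold only 7, 5 and 4 tested genes. Whether any class departs from the shares of all genes was not tested. In bulk libraries, fewer cells of a type and less RNA per cell cannot be told apart.

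Together the 34 genes held 1.13% ± 0.0376 of all counts in the DMBA3-4 libraries (SD, n = 6) and 0.867% ± 0.0806 in the DMSO3-1 libraries (SD, n = 6). The chaperones made up most of this share, with 0.841% to 0.911% per DMBA3-4 library and 0.545% to 0.738% per DMSO3-1 library. Degradation genes held 0.0598% to 0.0665% and 0.0637% to 0.0745%, ranges that overlap. Translocation genes held 0.146% to 0.174% and 0.128% to 0.157%. The sensors with Xbp1 were the smallest class, at 0.0161% to 0.0244% and 0.0193% to 0.0289%.

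**Figure D1:**
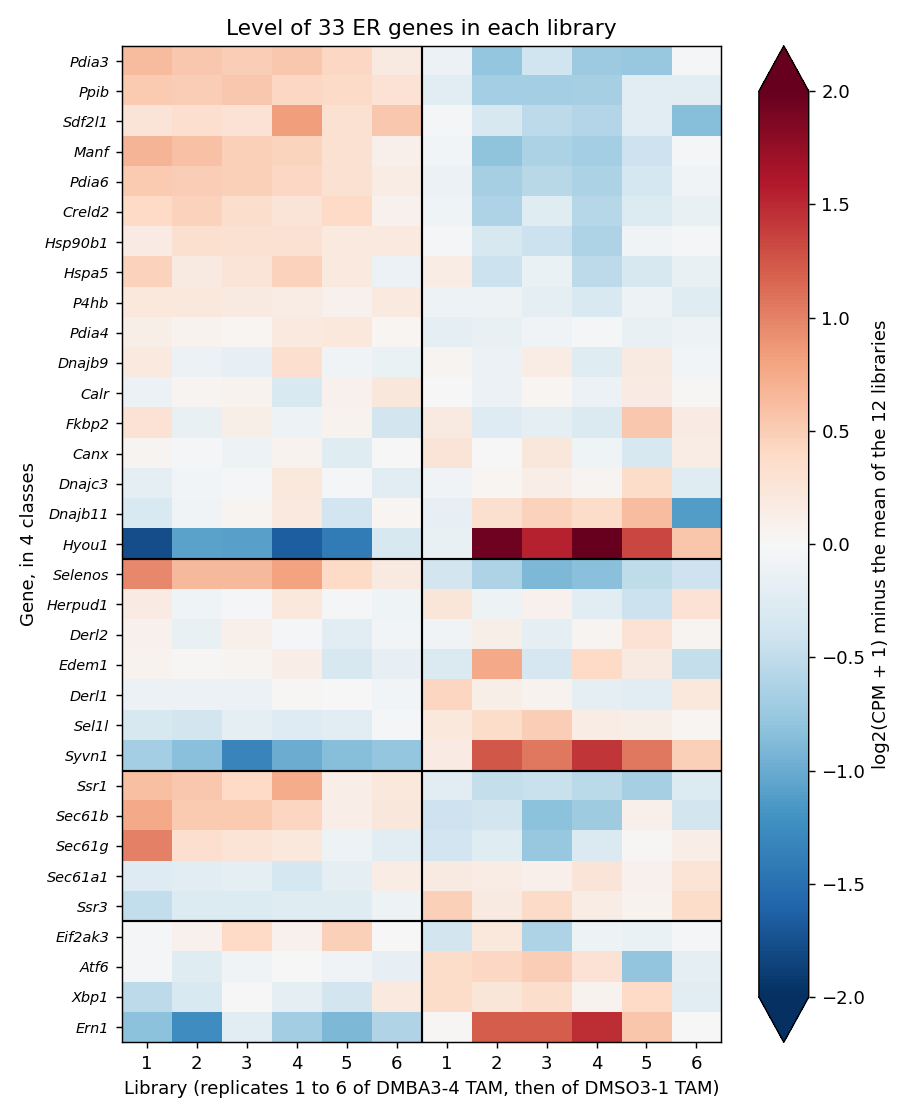
Level of each of the 33 tested ER genes (rows, in 4 classes) in each of the 12 libraries (columns), as log2(CPM + 1) minus the gene's mean over the 12 libraries, with red above and blue below the mean. Most chaperones are red in the DMBA3-4 libraries and blue in the DMSO3-1 libraries, Hyou1, Syvn1 and Ern1 are reversed, and DMSO3-1 replicates 1 and 6 often lie between the rest of their group and the DMBA3-4 libraries.

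Promoter sequences from RefSeq (GRCm38.p6, 250 bases before to 50 bases after each start) were matched to 29 of the 34 genes, all but Hyou1, Manf, Derl1, Sec61a1 and Atf6. The ER stress response element (CCAAT, 9 bases of any kind, then CCACG, on either strand) was found in 9 of the 29: Hspa5, Hsp90b1, Pdia6, Creld2, Calr, Canx, Dnajc3, Syvn1 and Derl3. It occurs in 39 of all 32851 promoters, or 0.119%. The related element II (ATTGG, 1 base, then CCACG) was found in Herpud1 and Dnajb11 and occurs in 0.0365% of promoters, and the UPR element TGACGTG was found in Hspa5 alone and occurs in 2.01%. The windows below show the elements of 9 of these genes, to set genes with the same element beside their differing responses. Each is written 5′ to 3′ on the strand of the gene, all lie before the RefSeq start, and capitals mark the matched letters, so that an element on the other strand reads CGTGG, 9 bases, ATTGG.
Hspa5, chr2:34771923-34772053 (+): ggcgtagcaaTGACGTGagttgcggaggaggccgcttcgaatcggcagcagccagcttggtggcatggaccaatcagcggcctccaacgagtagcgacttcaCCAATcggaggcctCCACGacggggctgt
Hsp90b1, chr10:86705523-86705666 (-): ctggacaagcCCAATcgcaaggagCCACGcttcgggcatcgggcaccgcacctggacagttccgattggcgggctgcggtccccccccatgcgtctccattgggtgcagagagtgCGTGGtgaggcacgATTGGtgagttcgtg
Pdia6, chr12:17266481-17266519 (+): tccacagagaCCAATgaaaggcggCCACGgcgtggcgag
Creld2, chr15:88819510-88819548 (+): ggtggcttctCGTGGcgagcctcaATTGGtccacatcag
Calr, chr8:84847065-84847103 (-): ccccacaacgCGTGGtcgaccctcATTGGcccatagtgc
Canx, chr11:50325790-50325828 (-): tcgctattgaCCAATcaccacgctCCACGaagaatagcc
Dnajc3, chr14:118937817-118937855 (+): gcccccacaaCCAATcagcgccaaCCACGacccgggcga
Syvn1, chr19:6046522-6046560 (+): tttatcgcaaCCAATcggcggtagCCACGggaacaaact
Herpud1, chr8:94386367-94386397 (+): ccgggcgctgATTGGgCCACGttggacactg

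Genes with the element did not move as a block. Of the 11 with the element or element II, 4 were higher in the DMBA3-4 libraries (Hspa5, Hsp90b1, Pdia6 and Creld2), 1 was lower (Syvn1), 5 did not pass the test (Calr, Canx, Dnajc3, Dnajb11 and Herpud1) and Derl3 was not tested. Of the other 18 genes with promoter sequence, 9 were higher and 4 lower. Among all tested genes with promoter sequence, 31.1% of the 8521 without either element were higher and 30.2% lower. For the 23 with one of them, the 10 tested ER genes included, it was 39.1% and 17.4%. Hsp90b1 carries the element at each end of its window and Hspa5 carries it together with the UPR element, and the 2 genes had log2 fold changes of 0.48 and 0.47. Calr, whose element lies between bases -162 and -144 from the start, had 0.01. A match of letters is a description of the promoter and not of a bound factor.

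Among chaperones and folding enzymes, 10 of 17 were higher in the DMBA3-4 libraries, 1 was lower and 6 did not pass the test, with a median log2 fold change of 0.35. Of all genes tested, 29.9% were higher and 30.2% lower. For 9 of the 10 higher genes, and for the lower one, the groups did not overlap. Over all genes tested the groups did not overlap for 17.0% upward and 15.2% downward. With the length correction described below, Pdia4 and P4hb lost their calls and Fkbp2 became lower. Against DMSO3-1 replicates 1 and 6 alone, Hspa5, Hsp90b1, Pdia4 and P4hb lost theirs. Levels are given in CPM, counts scaled to a common library size with TMM factors. Hspa5 encodes BiP, the main HSP70 chaperone of the ER, which also holds the 3 sensors inactive. Its level was 1371 to 2036 CPM in the DMBA3-4 libraries (median 1734) and 1028 to 1639 CPM in the DMSO3-1 libraries (median 1258). The ranges overlapped, with DMBA3-4 replicate 6 lowest in its group and DMSO3-1 replicate 1 highest in its own. BiP mRNA was 1.38-fold higher (log2 fold change 0.47, SE 0.13, n = 6 and 6, edgeR adjusted p = 0.0049).

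Pdia3 encodes ERp57, the disulfide isomerase that works with calnexin and calreticulin on glycoproteins and helps load MHC class I. It measured 1014 to 1379 CPM (median 1273) in the DMBA3-4 libraries and 519 to 879 CPM (median 606) in the DMSO3-1 libraries, with no overlap. DMSO3-1 replicates 1 and 6, at 821 and 879 CPM, were the highest of their group. Pdia3 had a log2 fold change of 0.91 (SE 0.14, edgeR adjusted p = 5.98e-05). Ppib, the prolyl isomerase cyclophilin B that folds collagen among other proteins, had 267 to 317 CPM (median 300) and 136 to 189 CPM (median 163). Its DMSO3-1 values lay at 2 levels, 136 to 137 CPM in replicates 2, 3 and 4 and 188 to 189 CPM in replicates 1, 5 and 6, all below the DMBA3-4 libraries. The log2 fold change of Ppib was 0.87 (SE 0.12, edgeR adjusted p = 1.25e-05), and 24.96% of its exon bases are shared with Snx22 on the other strand, whose reads cannot be told apart where the counting does not use strand.

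Hyou1 stood against its class. It encodes ORP150, a large HSP70-like protein that exchanges nucleotide on BiP. Its level was 7.88 to 23.3 CPM in the DMBA3-4 libraries (median 11.9) and 26.5 to 124 CPM in the DMSO3-1 libraries (median 81.5). Every DMBA3-4 library lay below every DMSO3-1 library, and the nearest pair were DMBA3-4 replicate 6 at 23.3 CPM and DMSO3-1 replicate 1 at 26.5 CPM. The mRNA was 6.09-fold lower (log2 fold change -2.61, SE 0.37, edgeR adjusted p = 4.56e-05). Sil1, the other exchange factor of BiP and a member of a wider list described below, was higher, with a log2 fold change of 0.62 (SE 0.12).

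The remaining higher chaperones had smaller or like changes. Sdf2l1, a partner of the ER HSP40 proteins, and Manf, a secreted stress protein of the ER, had log2 fold changes of 0.87 and 0.86. The disulfide isomerase Pdia6 reached 0.78, and Creld2, an ER stress-induced protein with isomerase activity, 0.64. Hsp90b1, the ER HSP90 known as GRP94, had 0.48, with 1061 to 1177 CPM in the DMBA3-4 and 616 to 926 CPM in the DMSO3-1 libraries. P4hb, which is both a disulfide isomerase and a subunit of collagen prolyl hydroxylase, had 0.35, and Pdia4 0.22. Pdia4 ranged only from 326 to 368 CPM and from 281 to 315 CPM, and the groups did not overlap. Its call was lost with the length correction described below (-0.03, edgeR adjusted p = 0.796), without a filter on low counts (adjusted p = 0.101) and with a replicate block (adjusted p = 0.0722), and that of P4hb with the length correction (0.16, adjusted p = 0.0776). Other annotated genes share 15.7% of the exon bases of Hsp90b1 and 9.25% of those of Manf.

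The other 6 chaperones did not pass the test. Calnexin (Canx) and calreticulin (Calr), the lectins that hold glycoproteins while they fold, had log2 fold changes of -0.09 (SE 0.11) and 0.01 (SE 0.10), beside 0.91 for their partner Pdia3. Canx measured 699 to 868 CPM and 664 to 989 CPM, and Calr 214 to 308 CPM and 241 to 294 CPM. The HSP40 co-chaperones that bring clients to BiP, Dnajb9 (ERdj4), Dnajb11 (ERdj3) and Dnajc3 (p58IPK), had log2 fold changes of 0.02, -0.25 and -0.10. Dnajb11 was spread widely in the DMSO3-1 libraries, from 36.2 CPM in replicate 6 to 123 CPM in replicate 5. Without replicate 6 alone its log2 fold change was -0.41 and passed the test (edgeR adjusted p = 0.0245). Fkbp2, an ER prolyl isomerase, had a log2 fold change of -0.06 (SE 0.16).

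**Figure D2:**
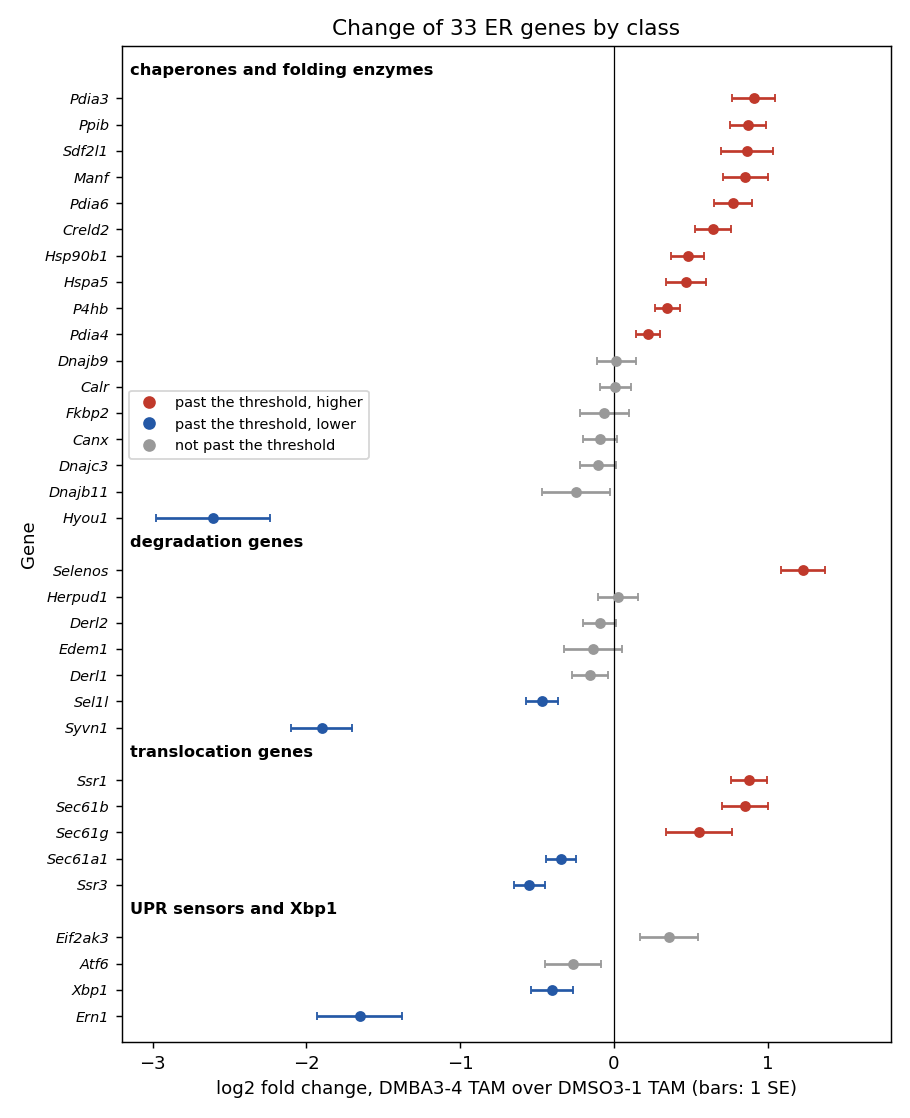
Log2 fold change of the DMBA3-4 over the DMSO3-1 libraries for the 33 tested ER genes in 4 classes, with bars of 1 SE, red for genes higher and blue for genes lower at an adjusted p under 0.05 and grey for the rest. Chaperones lie mostly to the right, with Hyou1 at -2.61 alone on the left, and Syvn1 and Ern1 lie far to the left in their classes.

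Genes of ER-associated degradation, which pull misfolded proteins back to the cytosol for the proteasome, gave 1 higher, 2 lower and 4 that did not pass the test, with a median log2 fold change of -0.14. Selenos encodes a selenoprotein of the channel that recruits the ATPase p97. It had 101 to 173 CPM in the DMBA3-4 libraries (median 139) and 46.8 to 68.4 CPM in the DMSO3-1 libraries (median 59.4). The groups were far apart, and Selenos had the largest increase of the 33 genes, 2.35-fold (log2 fold change 1.23, SE 0.14, edgeR adjusted p = 3.32e-06). Syvn1 encodes HRD1, the ubiquitin ligase at the centre of the same channel. It measured 19.2 to 30.5 CPM (median 27.1) and 55.5 to 135 CPM (median 104). The ranges did not overlap, DMSO3-1 replicates 1 and 6 being the nearest to the DMBA3-4 libraries at 55.5 and 69.2 CPM. Syvn1 was 3.74-fold lower (log2 fold change -1.90, SE 0.20, edgeR adjusted p = 1.20e-06).

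Sel1l, the adaptor that holds HRD1 and feeds it substrates, was lower by less. Its level was 92.8 to 117 CPM (median 101) against 123 to 170 CPM (median 136), again without overlap. Sel1l had a log2 fold change of -0.47 (SE 0.10, edgeR adjusted p = 0.00108), and -0.20 with the length correction (adjusted p = 0.0781). Herpud1, which gathers HRD1 complexes, had a log2 fold change of 0.03 (SE 0.13) with 90.4 to 112 CPM and 71.0 to 118 CPM. Edem1, a mannosidase-like protein that marks glycoproteins for removal, had -0.14 (SE 0.19), and the Derlins Derl1 and Derl2, membrane proteins of the exit channel, had -0.15 and -0.09. Derl3, the third Derlin, had 0 or 1 count in each DMBA3-4 library and 0 to 3 in each DMSO3-1 library, 5 counts in all. A difference of Derl3 was not detectable at this depth (exact permutation test, two-sided, p = 0.455 over 924 splits).

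Translocation genes were divided. Sec61b and Sec61g, the small subunits of the SEC61 channel, were higher and Sec61a1, which forms the pore itself, was lower. Of these subunits only Sec61b kept its call with the length correction described below. Sec61b had 118 to 181 CPM in the DMBA3-4 libraries (median 149) and 60.4 to 115 CPM in the DMSO3-1 libraries (median 81.2). The lowest DMBA3-4 library, replicate 5, was just above the highest DMSO3-1 library, also replicate 5. Sec61b had a log2 fold change of 0.85 (SE 0.15, edgeR adjusted p = 0.000178). Sec61g had 23.0 to 55.9 CPM (median 32.3) and 15.7 to 30.0 CPM (median 22.4), ranges that overlap. One library, DMBA3-4 replicate 1, set its highest value. The log2 fold change of Sec61g was 0.55 (SE 0.21, edgeR adjusted p = 0.0335), and 0.36 without that library (adjusted p = 0.108). Its call was also lost without DMBA3-4 replicate 2, or without DMSO3-1 replicate 1, 2, 3 or 4, with adjusted p from 0.0522 to 0.0788. With the length correction Sec61g had 0.31 (edgeR adjusted p = 0.184).

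Sec61a1 measured 280 to 395 CPM (median 310) and 381 to 434 CPM (median 401). Only DMBA3-4 replicate 6, at 395 CPM, reached the DMSO3-1 range. Its log2 fold change was -0.34 (SE 0.10, edgeR adjusted p = 0.00565), and -0.17 with the length correction (adjusted p = 0.143). An antisense gene shares 8.16% of its exon bases. The translocon-associated proteins, which help signal peptides open the channel, moved in opposite directions. Ssr1, the alpha subunit, had 639 to 974 CPM (median 805) and 369 to 499 CPM (median 425), with no overlap. The log2 fold change of Ssr1 was 0.88 (SE 0.12, edgeR adjusted p = 1.53e-05). Ssr3, the gamma subunit, had 290 to 381 CPM (median 340) and 427 to 570 CPM (median 495), also without overlap, and a log2 fold change of -0.55 (SE 0.10, edgeR adjusted p = 0.000217).

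**Figure D3:**
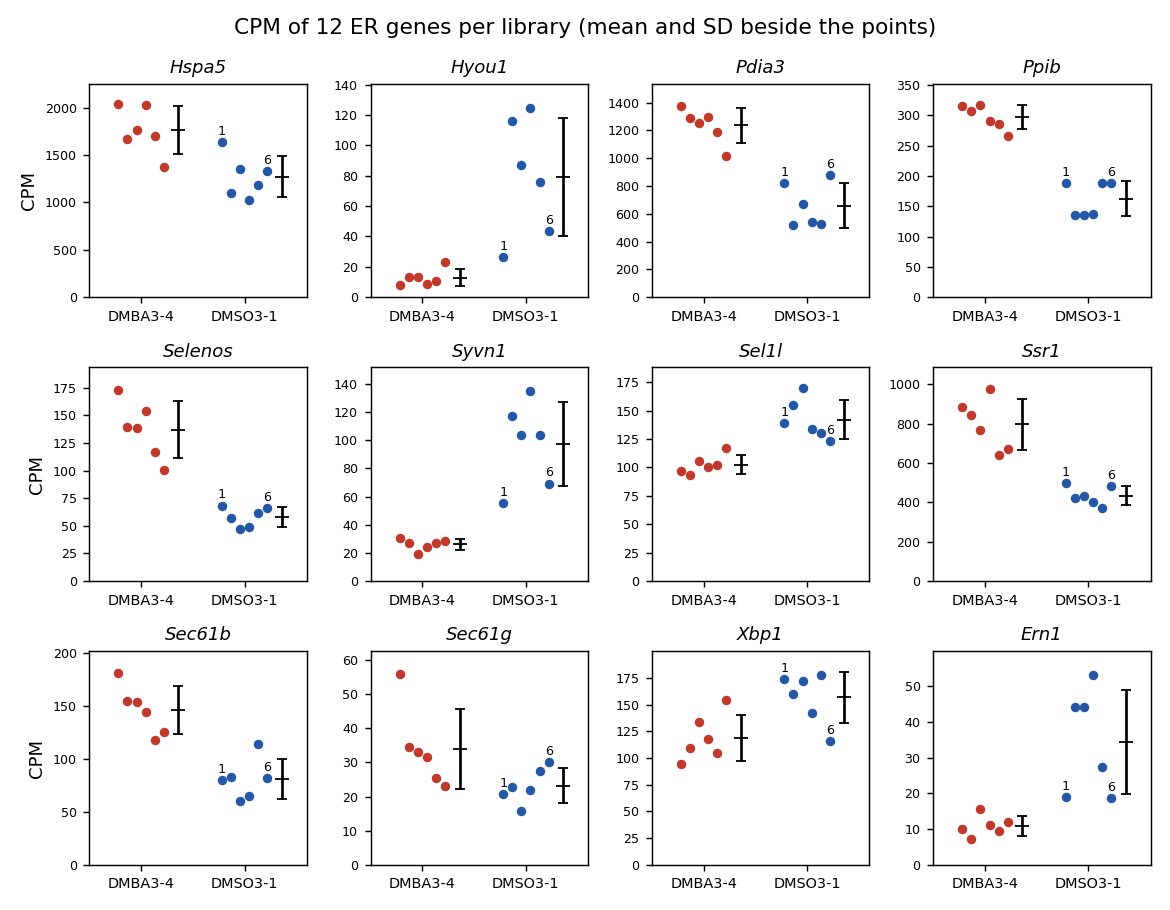
CPM of 12 ER genes in each library, with red points for the 6 DMBA3-4 libraries and blue points for the 6 DMSO3-1 libraries in order of replicate number, DMSO3-1 replicates 1 and 6 numbered, and the mean with its SD beside each group. Hyou1, Syvn1, Sel1l and Ern1 are lower in every DMBA3-4 library, and Pdia3, Ppib, Selenos, Ssr1 and Sec61b are higher in every one. The ranges of Hspa5, Sec61g and Xbp1 overlap.

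Of the sensors and Xbp1, 2 were lower, none was higher and 2 did not pass the test, with a median log2 fold change of -0.33. The kinase and nuclease Ern1 (IRE1) had 7.22 to 15.6 CPM in the DMBA3-4 libraries (median 10.6) and 18.7 to 53.1 CPM in the DMSO3-1 libraries (median 35.8). The groups did not overlap, and DMSO3-1 replicates 1 and 6, at 18.9 and 18.7 CPM, lay nearest to the DMBA3-4 libraries. Ern1 was 3.15-fold lower (log2 fold change -1.65, SE 0.28, edgeR adjusted p = 0.000114). Xbp1, whose mRNA IRE1 splices, had 94.0 to 154 CPM (median 113) and 116 to 177 CPM (median 166). DMBA3-4 replicates 3, 4 and 6 lay above the lowest DMSO3-1 library, replicate 6. The log2 fold change of Xbp1 was -0.40 (SE 0.14, edgeR adjusted p = 0.018), and -0.33 without DMBA3-4 replicate 1 (adjusted p = 0.0546). With libraries scaled by their upper quartile or by total counts alone, Xbp1 had adjusted p of 0.0541 and 0.0565. Counts per gene do not tell spliced from unspliced Xbp1.

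Atf6 and Eif2ak3 (PERK) had estimates of opposite sign, and neither passed the test. Atf6 had 45.7 to 54.7 CPM (median 51.7) and 31.1 to 77.2 CPM (median 68.8). Its DMBA3-4 values were close together, while in the DMSO3-1 group replicates 5 and 6 were low, at 31.1 and 47.6 CPM. Atf6 had a log2 fold change of -0.27 (SE 0.18, edgeR adjusted p = 0.213). Without DMSO3-1 replicate 5 alone it was -0.40 and passed the test (adjusted p = 0.0133), as it did with sample quality weights in limma-voom, at -0.35 (adjusted p = 0.0448). Eif2ak3 was the least abundant of the tested genes in the DMSO3-1 libraries by CPM, at 7.50 to 14.0 CPM (median 11.02) against 11.8 to 17.0 CPM (median 12.7). Its log2 fold change was 0.36 (SE 0.19, edgeR adjusted p = 0.116), and 8.05% of its exon bases are shared with another gene model.

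Levels between genes can be compared only per length of exon. Per kilobase, P4hb was the most abundant of the 34 genes in both groups, at 503 CPM per kb in the DMBA3-4 and 395 in the DMSO3-1 libraries, and Hspa5 followed with 417 and 301 CPM per kb. Pdia3 had 394 and 210 CPM per kb. At the low end, Ern1 had 1.33 and 4.21 CPM per kb, Eif2ak3 2.28 and 1.78, and Hyou1 1.78 and 10.9. In a separate table of the authors, from libraries with other names and without values per library, all 34 genes were also listed. There the authors' mean normalized count, which is not scaled to length, was 4059 for Hspa5, 1268 for Xbp1 and 2.61 for Derl3.

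The ER genes, like the genes tested as a whole, varied more among the DMSO3-1 libraries. The median coefficient of variation over the 33 genes was 12.4% in the DMBA3-4 and 17.5% in the DMSO3-1 libraries, beside 18.2% and 23.0% over 11499 genes. It was larger in the DMSO3-1 libraries for 25 of the 33 genes and for 65.2% of all. Replicate 1 or 6 was the highest DMSO3-1 library for 11 of the 14 higher genes and the lowest for 5 of the 7 lower ones. The same count was not made over all called genes, so it is not shown to be particular to the ER genes. On the first principal component of all tested genes (72.4% of the variance) these 2 libraries, at 45.1 and 45.5, also lay nearest to the DMBA3-4 libraries. The other DMSO3-1 libraries lay at 67.1 to 72.7. Without both, 14 genes were higher and 8 lower, where 31.9% and 31.5% of 11904 genes were called. With only both as the DMSO3-1 group, 9 were higher and 7 lower, where 18.5% and 18.4% of 12483 genes were called. The call of Hspa5 was then lost in edgeR (log2 fold change 0.19, adjusted p = 0.319), as were those of Hsp90b1 (0.23, adjusted p = 0.119), P4hb (0.29, adjusted p = 0.0512), Pdia4 (0.20, adjusted p = 0.177), Sec61g (0.38, adjusted p = 0.336) and Xbp1 (-0.34, adjusted p = 0.161). Derl1 passed the test only there among these library sets, at -0.45 (adjusted p = 0.00832).

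The other calls kept their direction against either set of DMSO3-1 libraries, and most changes were smaller against replicates 1 and 6. Hyou1 had a log2 fold change of -1.48 against replicates 1 and 6 and -2.94 against the other 4 DMSO3-1 libraries. Syvn1 had -1.31 and -2.12, Ern1 -0.84 and -1.93, Pdia3 0.49 and 1.15, Manf 0.44 and 1.10, Pdia6 0.43 and 0.96, Creld2 0.39 and 0.77, Ppib 0.60 and 1.01, and Ssr1 0.64 and 0.99. Selenos had 0.97 and 1.37. Ssr3 and Sec61a1 were exceptions, with the larger change against replicates 1 and 6. Ssr3 had -0.75 and -0.45, and Sec61a1 had -0.45 and -0.30. Dnajb11 was not past the threshold against those 2 libraries, at 0.45 (adjusted p = 0.126), and lower against the other 4, at -0.49 (adjusted p = 0.0039).

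Gene length moved with these results. The exon length of the ER genes (GENCODE M21, GRCm38) was 1108 to 10431 bases for the 14 higher genes, with a median of 3000, and 3248 to 8555 bases for the 7 lower genes, with a median of 6732. Over the 33 genes the correlation of log2 length with log2 fold change was -0.487 (Pearson) and -0.508 (Spearman), and over 11399 genes it was -0.158 and -0.259. These are correlations across genes of the same 12 libraries. In the shortest quartile of all genes 41.5% were higher and 17.97% lower, and in the longest quartile 16.3% and 46.6%. Of the 9 ER genes in the shortest quartile 6 were higher and none lower, and of the 6 in the longest 1 was higher (Ssr1) and 3 were lower (Hyou1, Sel1l and Ern1).

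With a correction for length in each library, 12 ER genes were higher and 7 lower, where 29.4% and 28.4% of 11511 genes were called. Calls were then lost for Pdia4 (log2 fold change -0.03), P4hb (0.16), Sec61g (0.31), Sel1l (-0.20) and Sec61a1 (-0.17), and Eif2ak3 became higher (0.48) while Fkbp2 (-0.37) and Derl1 (-0.28) became lower. Hyou1 had -2.37, Syvn1 -1.85, Ern1 -1.37, Xbp1 -0.53, Selenos 0.91, Pdia3 0.76, Ssr1 1.21 and Hspa5 0.46, each past the threshold. Of the 21 calls, 5 were lost in this way.

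**Figure D4:**
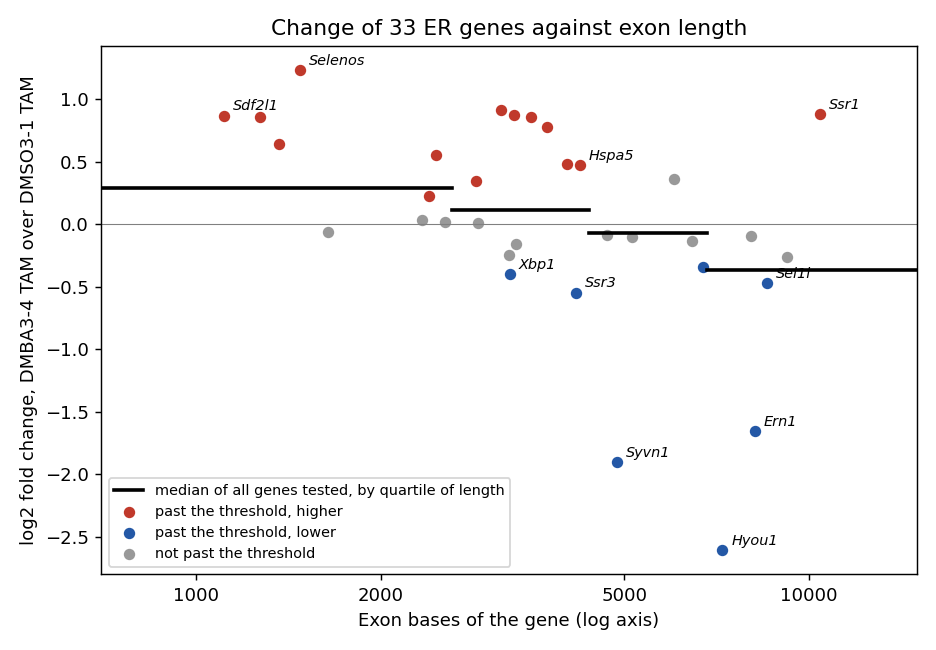
Log2 fold change of the 33 tested ER genes against their exon length on a log axis, coloured by the test, with black lines for the median of all tested genes in each quartile of length (0.29, 0.12, -0.07 and -0.36 from shortest to longest). Most red points lie at the short end, Ssr1 at 10431 bases is an exception, and Hyou1, Syvn1 and Ern1 lie far below the line of their quartile.

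Wider lists of the same 4 functions were counted in the same way, to be read beside the 29.9% of all genes higher and 30.2% lower. Values with the length correction or for other sets of libraries are not given for these lists. Of 31 tested other folding factors of the ER, 15 were higher, 6 lower and 10 did not pass the test, with a median log2 fold change of 0.25. Among genes with a mean of at least 10 CPM, the most changed were Cnpy4 (1.44, SE 0.20) and Fkbp14 (1.22, SE 0.16), an isomerase that acts on collagen, and on the other side Tmx3 (-1.45, SE 0.17), a membrane thioredoxin, and Ero1l (-1.37, SE 0.30), the oxidase that recharges disulfide isomerases. Uggt2, a glucosyltransferase that checks glycoprotein folding, was below that limit, with means of 1.496 and 12.1 CPM and a log2 fold change of -2.97 (SE 0.44). Serpinh1, the collagen chaperone HSP47, had -1.34 (SE 0.30), although the collagen folding genes Ppib and P4hb were higher. Of 24 tested other degradation genes, 8 were higher, 4 lower and 12 did not pass. Fam8a1 (0.95, SE 0.23) and Selenok (0.63, SE 0.14), both of HRD1 and p97 complexes, led the higher genes, and the mannosidases Edem3 (-2.18, SE 0.37) and Man1b1 (-1.48, SE 0.31) the lower.

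Other translocation genes had the largest share of higher genes among the wider lists, with 21 of 32 tested higher, 5 lower and a median log2 fold change of 0.50. For 12 of the 32 every DMBA3-4 library lay above every DMSO3-1 library, beside 13 of the 31 other folding factors and 17.0% of all genes. Ost4 (1.37, SE 0.22), a small subunit of the enzyme that attaches N-glycans, and Sec63 (1.17, SE 0.25), which couples BiP to the channel, were the most raised. Tram1 (-0.85, SE 0.26), a membrane protein beside the channel, and Spcs3 (-0.68, SE 0.12), of the signal peptidase, were the most lowered. The translocon-associated proteins not among the 34, Ssr2 and Ssr4, were higher at 0.89 (SE 0.11) and 0.50 (SE 0.10), while Ssr3 was lower. Other scalings of the libraries moved the median of all genes by at most 0.08 on the log2 scale.

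Other regulators of the unfolded protein response gave 9 higher, 10 lower and 6 that did not pass among 25 tested, with a median log2 fold change of -0.12. Map3k5 (1.41, SE 0.15), a stress kinase that acts below IRE1, and Creb3 (1.18, SE 0.17), a transcription factor of the ER membrane, were the most raised. Trib3 (-2.64, SE 0.44) and Chac1 (-2.14, SE 0.25), both targets of the PERK and ATF4 branch, were the most lowered. Atf4 itself had -0.31 (SE 0.10), while Ddit3 (CHOP), another target, was higher at 0.72 (SE 0.22). Atf6b, the relative of Atf6, had -1.38 (SE 0.24), and the proteases that cut both were divided, with Mbtps1 at 0.29 (SE 0.09) and Mbtps2 at -1.68 (SE 0.24). These 4 lists were chosen with results of the same libraries known, and Uggt2, Serpinh1, Sil1, Ssr2, Ssr4, Atf4, Ddit3, Atf6b, Mbtps1 and Mbtps2 were named after their values were seen. Of the genes named from them, Ero1l, Serpinh1, Fam8a1, Selenok, Man1b1, Sec63, Tram1, Trib3, Atf4, Ddit3 and Mbtps1 had ranges that overlapped between the groups.

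**Figure D5:**
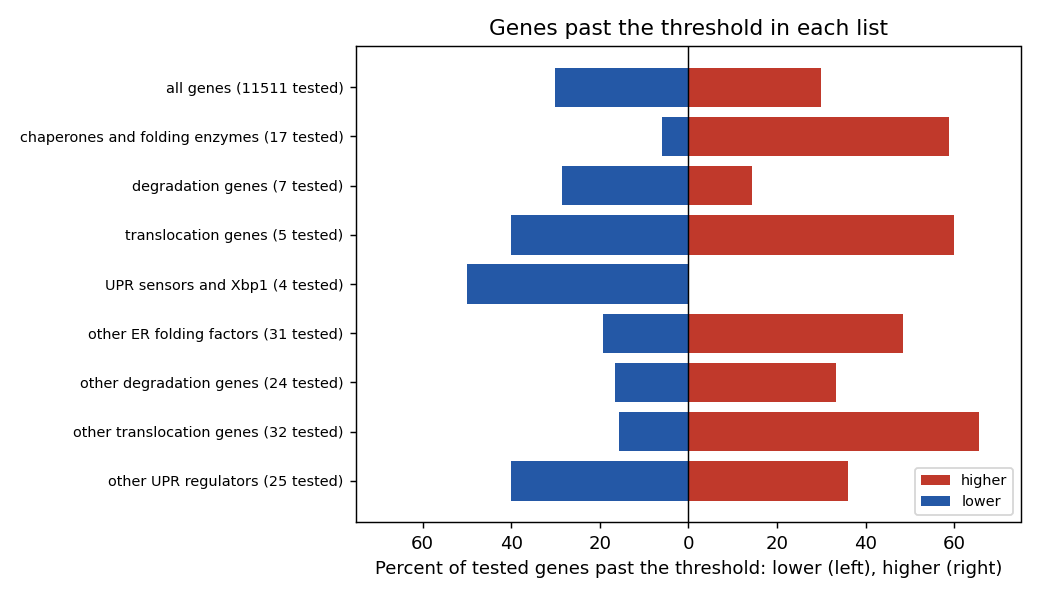
Percent of the tested genes in each list that were higher (right, red) or lower (left, blue) in the DMBA3-4 libraries at an adjusted p under 0.05, for all genes, the 4 classes of the 34 ER genes and 4 wider lists. The bars of all genes reach 29.9% and 30.2%, and the chaperones and both translocation lists reach furthest to the right.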

How the data were processed

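RNA-seq was analysed from 12 libraries, 6 per group by the treatment label. The authors deposited raw counts per gene, as whole numbers. Their build was GRCm38 (mm10) by the submitters' processing notes. Which aligner and counting program they used, and whether strand was used, is not given in the sources used here. Labels describe column-purified RNA and a SMARTER kit, whereas the paper describes direct lysis and SmartSeq2. A second deposited table of the authors holds a mean normalized count (signal), used here only as the authors' mean, and their log2 fold change, standard error, Wald score, p-value and adjusted p, which were not used, as were not the sheets with the same columns for other comparisons.

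Of 55221 entries in the count table, 19 with numbers as names (0.0893% to 0.128% of counts) were set aside. Genes were filtered with filterByExpr, which left 11511, scaled by TMM and tested with edgeR 4.0.16 (robust quasi-likelihood, Benjamini-Hochberg, R 4.3.3), without covariates. SE is the log2 fold change divided by the square root of F. Derl3, below the filter, was tested by exact permutation of log2(CPM + 1). DESeq2 1.42.0, limma-voom (limma 3.58.1), other scalings, low-count filters, a stricter threshold, a replicate block and sets of libraries were alternatives. A length correction was added after the data were seen. It was a lowess on exon length of each library's log CPM minus the gene's mean over the libraries, used as an offset. The code was tested on simulated data. Total counts of 2752005 to 4632817 limit the precision of genes near 10 CPM, and every pair of libraries differed by more than sampling noise (lowest chi-square per gene 2.67 over 66 pairs).

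The genes and lists were chosen with earlier results of these data known. Values are given for Hspa5, the sensors with Xbp1 and, in each other class, the 3 largest changes past the threshold. Ranges are given for some of the others, and every tested ER gene has at least a log2 fold change. In each wider list the 2 largest changes each way with a mean of at least 10 CPM are named.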

Additional observations from a re-analysis of the deposited data

Results flagged for a closer look

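Among 66 sets of 6 libraries (33 ER genes in each group), 3 held 1 library far from the other 5 by Dixon's criterion, where chance gives about 1 in 20. DMBA3-4 replicate 6 had 23.3 CPM of Hyou1, beside 7.88 to 13.5 CPM in the other DMBA3-4 libraries. The same library had 395 CPM of Sec61a1, beside 280 to 317 CPM. DMBA3-4 replicate 1 had 55.9 CPM of Sec61g, beside 23.0 to 34.6 CPM.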

How the results depend on the processing

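Over 26 alternatives, Pdia3, Pdia6, Hyou1, Sdf2l1, Creld2, Manf, Ppib, Syvn1, Selenos, Sec61b, Ssr1, Ssr3 and Ern1 kept their direction and their call. With only DMSO3-1 replicates 1 and 6 as the comparison group, 4605 genes passed the threshold in place of 6918, and 9 ER genes were higher in place of 14, with fewer libraries in the fit. Every change of direction was in a gene that did not pass the test, apart from Pdia4. Against those 2 libraries Calr had -0.0528, Dnajb9 -0.0428, Dnajb11 0.45, Dnajc3 0.0524, Herpud1 -0.30 and Edem1 0.30. Without those 2, Canx had 0.0120, Derl1 0.0017 and Fkbp2 0.0174. With the length correction Atf6 had 0.0452, Calr -0.17, Derl2 0.15, Dnajb9 -0.21, Edem1 0.0379, Herpud1 -0.23 and Pdia4 -0.0268. Fkbp2 had 0.10 with quality weights in limma-voom and 0.0127 with upper quartile scaling. The causes were not tested. Leaving out each library in turn gave 6490 to 7139 genes past the threshold, 13 to 14 ER genes higher and 6 to 8 lower, and moved Calr from -0.0304 to 0.0740, Dnajb9 from -0.0491 to 0.0589, Edem1 from -0.23 to 0.0335, Fkbp2 from -0.13 to 0.0591 and Herpud1 from -0.0449 to 0.0934. Replicate numbers did not pair the libraries (correlations of deviations -0.158 to 0.129, none best with its own number). With a replicate block, 6481 genes passed the threshold, 12 ER genes were higher and 7 lower, and Pdia4 (adjusted p = 0.0722) and Sec61g (0.0775) lost their calls. Without a filter on low counts Pdia4 (0.101) and Sec61a1 (0.0675) lost theirs, and at a threshold of 0.01 Pdia4, Sec61g and Xbp1.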
